A study of Mus musculus with 2 samples.

Results

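The 10 genes described here encode enzymes that build triglyceride and cholesterol ester: Dgat1, Dgat2, Soat1, Gpam, Gpat3, Gpat4, Agpat3, Agpat4, Lpin1 and Lpin2. They were taken by gene symbol, as a set chosen with earlier results of these data known, and are 10 of the 32285 features counted. B16-F10 is a transplantable mouse melanoma cell line. It was grown as subcutaneous tumours in mice, either with the tumour cells carrying a DGAT1 knockout or as WT. The labels give 3 tumours per group, taken at day 14 and digested with collagenase D and DNase I, and viable CD45+ cells, the leukocytes, were sorted for droplet sequencing. Neither the strain, sex and age of the hosts nor the way the knockout was made is given in the sources used here, and the labels name no further allele or agent for either group. Cells of the 3 tumours of a group were sequenced as 1 library and cannot be traced to a tumour. No test between the groups was therefore possible, and every comparison below is of these 2 libraries. In each pair of values the knockout library comes first.

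Triglyceride is made in the endoplasmic reticulum by adding fatty acids to glycerol 3-phosphate step by step. GPAT enzymes add the first fatty acid, AGPAT enzymes add the next to make phosphatidate, lipins remove the phosphate to give diacylglycerol, and DGAT1 or DGAT2 adds the last fatty acid. SOAT1 joins a fatty acid to cholesterol. Both products are stored in lipid droplets, which in leukocytes are best known from foam cells, the lipid-laden macrophages of arterial plaques. Phosphatidate and diacylglycerol also feed the synthesis of membrane phospholipids, so the early enzymes serve more than storage.

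The libraries held 202946827 and 235652476 UMIs, the molecule counts of droplet sequencing. Filtering left 11101 and 9370 cells, whose median UMI counts were 10677 and 13712, and 26 barcodes occurred in both libraries. Cells were placed in classes by marker genes, and 17 classes held 8859 and 7936 of them. Knockout and WT were compared in the 11 classes that had 100 or more cells on both sides, of which 10 are immune. The labels give the cell type as melanoma although CD45+ cells were sorted. All 7 melanocyte genes used as a gate were higher in the 191 and 548 cells of that gate than in the other cells. None of the 7 was among its top 10 genes by fold. Its cells held medians of 2200 and 4484 UMIs, far under the library medians. It is therefore called the melanocyte-gene gate and given no cell type. The gate held 7548323 and 30017609 UMIs in all, so its pooled levels rest mostly on cells deeper than those medians. The classical monocyte-like class was led by the granule genes Elane, Mpo and Ctsg, the CD8 T-like class held 4 late granzymes (Gzmd, Gzme, Gzmf and Gzmg) among its leading genes, and cells scoring between the monocyte and macrophage gates, led by Saa3, Spp1 and Arg1, were kept apart without a name. Free RNA, which enters droplets from burst cells, was estimated at 0.950% to 15.1% of a class's UMIs in the knockout library and 2.21% to 14.9% in the WT library.

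**Figure D1:**
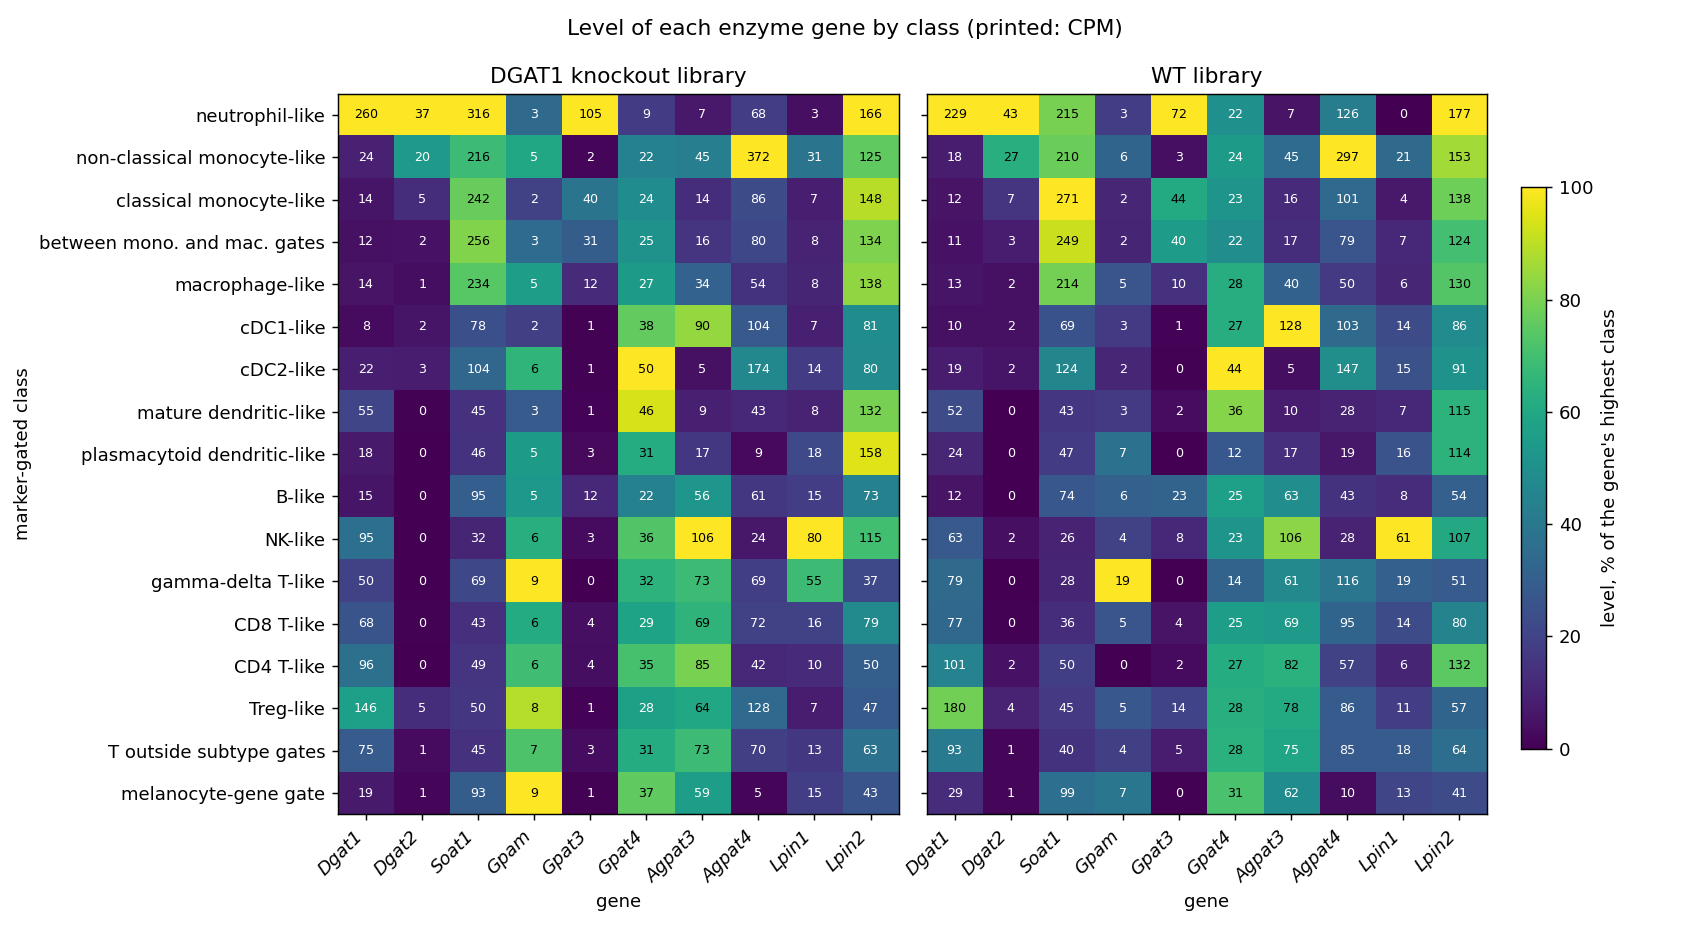
Level of each of the 10 enzymes (columns) in each of the 17 classes (rows), with the knockout library on the left and the WT library on the right. Printed values are CPM, and colour gives the level as a percent of the gene's highest class in that library. Dgat1 and Gpat3 stand out in neutrophil-like cells, Soat1 in monocyte and macrophage classes, and Lpin1 in NK-like cells. Values are to be compared down a column.

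Levels are given as CPM, a gene's UMIs scaled to an equal total for every class and library, with exact 95% Poisson intervals, which cover counting error only and take no account of tumours or animals. The enzymes differed in how unevenly the immune classes carried them. Among the 10 compared immune classes the highest level of Dgat1 was 32.5 and 23.2 times the lowest. For Agpat4 it was 7.36 and 5.28 times, against 2.65 and 2.76 times for Lpin2. Of the 10 enzymes, 7 had the same highest class in both libraries. Across the 11 compared classes, the log2 levels of the libraries correlated with Pearson's r from 0.59 for Gpam to nearly 1 for Agpat3 (0.995), as a description over classes that share a library. CPM here is not scaled by gene length, so levels are compared between classes of 1 gene and not between genes.

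Dgat1 (ENSMUSG00000022555, chromosome 15 from 76502015 to 76511953, minus strand, mm10) encodes the targeted enzyme, which can make triglyceride from diacylglycerol throughout the endoplasmic reticulum. Its level was highest in neutrophil-like cells, at 260.2 CPM (233 to 289.9) from knockout and 229 CPM (192 to 271) from WT tumours. There, 10 cells held 33.5% and 55.2% of its 328 and 134 UMIs, and free RNA was estimated at 1.97% and 2.94% of the level. Treg-like cells followed with 147 and 179.7 CPM. NK-like cells were at 94.9 and 63.5 CPM, CD8 T-like cells at 67.8 and 77.4 CPM and CD4 T-like cells at 96.04 and 101 CPM. Gamma-delta T-like cells, at 50.3 and 79.2 CPM from 11 and 17 UMIs, had wide intervals. Mature dendritic-like cells, at 54.8 and 52.3 CPM, were the only myeloid class besides neutrophil-like cells above 50 CPM in both libraries. Macrophage-like cells, at 13.8 and 13.2 CPM, classical monocyte-like cells, at 14.4 and 12.3 CPM, and cDC1-like cells, at 8.001 and 9.85 CPM, were low. Free RNA was estimated at 22.1% and 20.7% of the macrophage level. The intervals of neutrophil-like and Treg-like cells overlap in the WT library, and those of CD4 T-like and NK-like cells in both libraries.

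A share of cells with at least 1 UMI depends on depth, and neutrophil-like cells held medians of 4178 and 4433 UMIs against 16423 and 20656 in macrophage-like cells. With each cell thinned to 2000 UMIs, Dgat1 was detected in 29.1% (23.5 to 35.2) and 21.2% (14.1 to 29.9) of neutrophil-like cells, by exact binomial intervals over 244 and 113 cells deep enough. The unthinned shares were 43.1% and 34.8%. Among macrophage-like cells the thinned shares were 3.55% and 2.58%, over 1379 and 2829 cells, while the unthinned shares were 19.6% and 22.8%. Neutrophil-like cells, the class with the fewest UMIs per cell of these, thus kept the larger share at equal depth. The annotation places Hsf1 on the other strand 102 bases past the 3' end of Dgat1. The sources used here do not say whether strand entered the counting, and reads of Hsf1 that run into Dgat1 cannot be told apart from its own. The edit was made in the implanted tumour cells and the edited part is not given here, so Dgat1 UMIs of leukocytes do not check the labels.

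**Figure D2:**
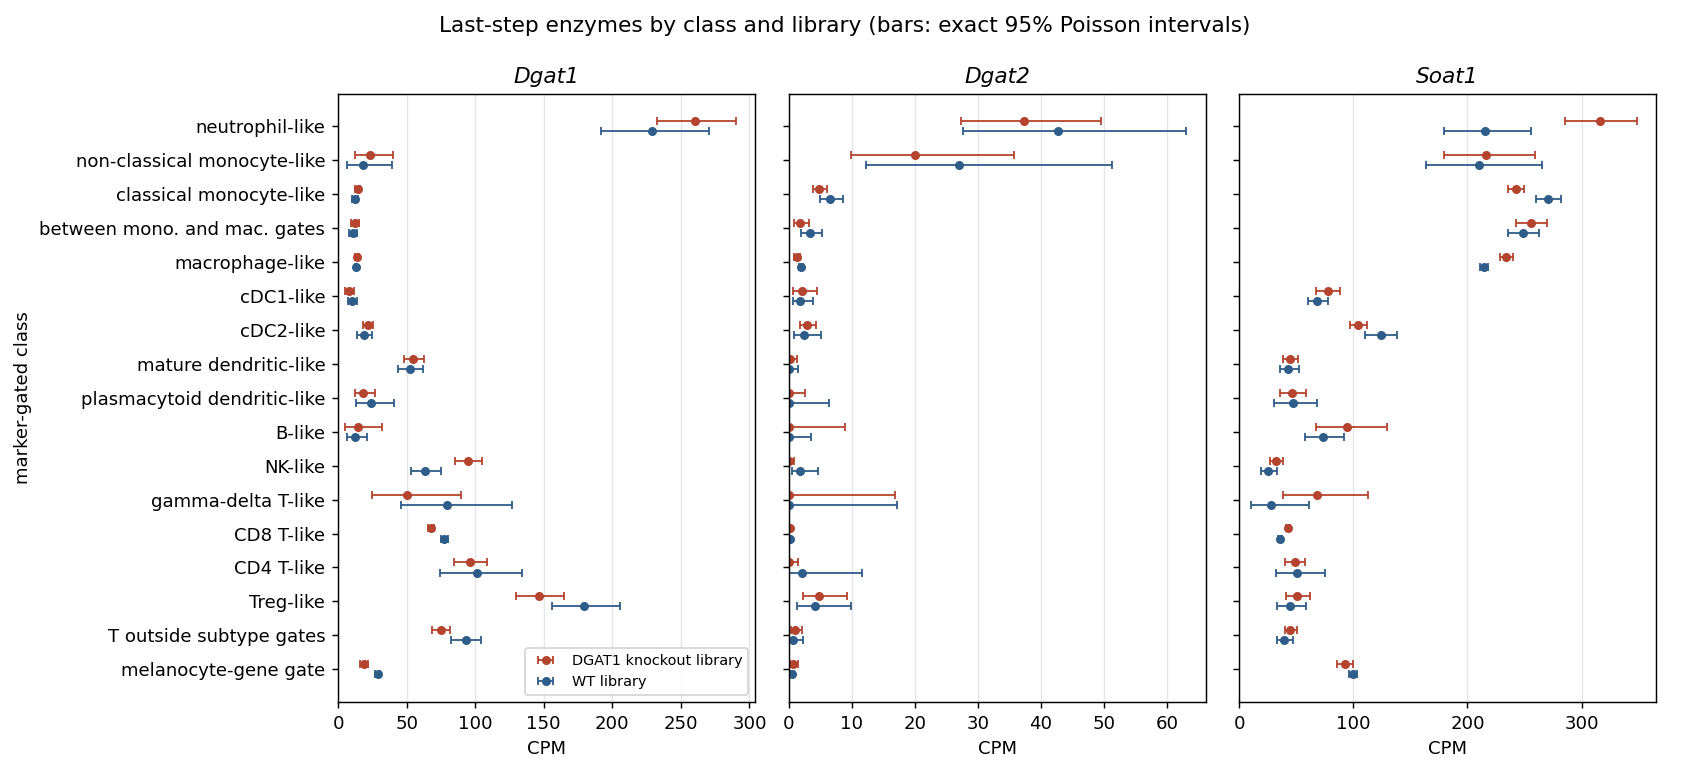
Level in CPM (linear axis) of the last-step enzymes Dgat1, Dgat2 and Soat1 in each of the 17 classes, with both libraries as separate points and exact 95% Poisson intervals as bars (counting error only). Dgat1 and Dgat2 are highest in neutrophil-like cells, and Soat1 is high in all monocyte, macrophage and neutrophil-like classes.

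Dgat2 (ENSMUSG00000030747, chromosome 7 from 99153658 to 99182719, minus strand) encodes an enzyme unrelated in sequence to DGAT1 that makes triglyceride at the droplet surface. It was found mainly in 2 myeloid classes. Neutrophil-like cells were at 37.3 CPM (27.4 to 49.6) from knockout and 42.6 CPM (27.6 to 62.95) from WT tumours, and non-classical monocyte-like cells, the patrolling monocytes of the circulation, at 19.99 CPM (9.98 to 35.8) from knockout and 26.97 CPM (12.3 to 51.2) from WT tumours. Their intervals overlap in both libraries. Classical monocyte-like cells were at 4.89 and 6.63 CPM, macrophage-like cells at 1.33 and 1.93 CPM and CD8 T-like cells at 0.268 and 0.201 CPM. No UMI was found in plasmacytoid dendritic-like, B-like and gamma-delta T-like cells of either library; 3 UMIs, the limit that a count of 0 allows, come to 2.13 and 5.20 CPM in the plasmacytoid class, 7.29 and 2.87 CPM in B-like cells and 13.7 and 13.98 CPM in gamma-delta T-like cells. Thinned to 2000 UMIs, 6.56% and 8.85% of neutrophil-like cells held a Dgat2 UMI. Dgat1 and Dgat2 therefore shared their highest class. In Treg-like cells, the next highest class for Dgat1, Dgat2 was at 4.88 and 4.22 CPM.

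Soat1 (ENSMUSG00000026600, chromosome 1 from 156424525 to 156474331, minus strand), the sterol O-acyltransferase of macrophages and many other cells, was higher in monocyte, macrophage and neutrophil-like classes than in T and NK-like cells. Neutrophil-like cells were at 316 CPM (286 to 348) from knockout and 215 CPM (179 to 256) from WT tumours. Classical monocyte-like cells were at 243 and 271 CPM, the cells between the monocyte and macrophage gates at 256 and 249 CPM, macrophage-like cells at 234 and 214 CPM and non-classical monocyte-like cells at 216 and 209.8 CPM. Conventional dendritic-like cells were intermediate, with 105 and 124 CPM in the cDC2-like and 77.6 and 68.7 CPM in the cDC1-like class. B-like cells were at 94.7 and 73.6 CPM. NK-like cells were lowest at 32.1 and 25.6 CPM, and CD8 T-like cells were at 42.6 and 35.8 CPM. The highest class was neutrophil-like in the knockout and classical monocyte-like in the WT library. The gene model overlaps Gm37648 on the other strand.

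The first step has 3 enzymes here. Gpam (ENSMUSG00000024978, chromosome 19 from 55067268 to 55127238, minus strand) encodes the GPAT of the mitochondrial outer membrane. CD8 T-like cells were at 5.62 and 4.93 CPM, macrophage-like cells at 5.08 and 4.95 CPM and classical monocyte-like cells at 1.80 and 2.01 CPM. Gamma-delta T-like cells gave 9.14 and 18.6 CPM, from only 2 and 4 UMIs. Gpat3 (ENSMUSG00000029314, chromosome 5 from 100845713 to 100899102, plus strand), a GPAT of the endoplasmic reticulum, was highest in neutrophil-like cells and next in the classical monocyte-like and between-gate cells. It was at 105 CPM (87.6 to 124) from knockout and 71.6 CPM (51.6 to 96.8) from WT tumours in neutrophil-like cells, at 40.3 and 43.7 CPM in classical monocyte-like cells and at 30.7 and 39.6 CPM in cells between the gates. Macrophage-like cells were lower, at 12.4 and 10.1 CPM, and the cDC1-like class, at 0.696 and 0.798 CPM, the cDC2-like class, at 0.664 and 0.397 CPM, and the melanocyte-gene gate, at 0.662 and 0.433 CPM, were lowest among the compared classes. The cDC2-like class held only 5 and 1 UMIs of it, and free RNA was estimated at 60.2% and 95.1% of that level. Its gene model overlaps Gm42987 on the same strand, and reads of the overlap could belong to either. Gpat4 (ENSMUSG00000031545, chromosome 8 from 23171265 to 23208346, minus strand), the other GPAT of the endoplasmic reticulum, was spread more evenly. Levels reached 49.5 and 44.1 CPM in cDC2-like, 46.5 and 36.1 CPM in mature dendritic-like and 36.1 and 22.8 CPM in NK-like cells, and were lowest in neutrophil-like cells of the knockout library, at 8.73 and 22.2 CPM, where the WT level lay near those of the monocyte classes. 

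Agpat3 (ENSMUSG00000001211, chromosome 10 from 78269178 to 78352489, minus strand) encodes a lysophosphatidate acyltransferase of the endoplasmic reticulum and Golgi, known for placing polyunsaturated fatty acids in phospholipids. It separated the conventional dendritic classes. cDC1-like cells, the dendritic cells best known for priming CD8 T cells, were at 89.8 CPM (79.1 to 101) from knockout and 129 CPM (117 to 141) from WT tumours, and cDC2-like cells at 4.91 CPM (3.46 to 6.77) from knockout and 4.77 CPM (2.46 to 8.33) from WT tumours. NK-like cells were at 107 and 106 CPM, CD4 T-like cells at 84.98 and 82.04 CPM, CD8 T-like cells at 69.1 and 69.4 CPM and macrophage-like cells at 33.7 and 40.1 CPM. Neutrophil-like cells were at 7.14 and 6.82 CPM, of which free RNA was estimated to supply 57.2% and 100.2%. With 9 and 4 UMIs, that level cannot be told from background in either library.

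Agpat4 (ENSMUSG00000023827, chromosome 17 from 12118704 to 12219645, plus strand), a family member known from brain and from mitochondria, had another order of classes. Non-classical monocyte-like cells were highest, at 373 CPM (323 to 427) from knockout and 297 CPM (241 to 361) from WT tumours. The cDC2-like class, at 174 and 147 CPM, lay above the cDC1-like class, at 104 and 103 CPM, the reverse of their order for Agpat3. Treg-like cells were at 128 and 86.04 CPM, neutrophil-like cells at 68.2 and 126 CPM, classical monocyte-like cells at 85.6 and 101 CPM and CD8 T-like cells at 72.1 and 95.1 CPM. NK-like cells, among the highest for Agpat3, were the lowest compared immune class for Agpat4, at 23.7 and 27.9 CPM. The annotation lists Mir7659 inside Agpat3 and the pseudogene Tdgf1-ps2 within the bounds of Agpat4.

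Lpin1 (ENSMUSG00000020593, chromosome 12 from 16535669 to 16610966, minus strand) and Lpin2 (ENSMUSG00000024052, chromosome 17 from 71182560 to 71249817, plus strand) encode phosphatidate phosphatases, and LPIN1 is also known as a coactivator of fat-burning genes in the nucleus. Lpin1 was highest in NK-like cells, at 80.2 CPM (71.6 to 89.4) from knockout and 60.7 CPM (50.9 to 71.98) from WT tumours. Gamma-delta T-like cells gave 54.8 and 18.6 CPM, from 12 and 4 UMIs. Non-classical monocyte-like cells were at 30.9 and 20.98 CPM, CD8 T-like cells at 15.6 and 13.98 CPM, macrophage-like cells at 8.41 and 6.49 CPM and classical monocyte-like cells at 6.81 and 4.14 CPM. Neutrophil-like cells held 4 and 0 UMIs of it, where the limit of a count of 0 is 5.12 CPM in the WT library. Lpin2 was broad. It was at 166 and 177 CPM in neutrophil-like cells, 148 and 138 CPM in classical monocyte-like cells, 138 and 129.6 CPM in macrophage-like cells, 78.7 and 79.6 CPM in CD8 T-like cells and 115 and 107 CPM in NK-like cells. The melanocyte-gene gate had the lowest Lpin2 level of the compared classes, 43.1 and 41.3 CPM. Gm26561 lies within the bounds of Lpin2.

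The genes whose profile over classes was most like each last-step enzyme were taken from 11268 genes, by Pearson's r of log2(CPM + 1) over the 22 points given by 11 classes and 2 libraries. The points share libraries and class make-up, so r is a description only. For Dgat1 they were Gabpb1 (0.92), Carns1 (0.89) and Nudt4 (0.89). For Dgat2 they were Trem1 (0.95), Hnrnph2 (0.94) and Mafk (0.93). Dgat2 had at least 50 UMIs in only 3 of the 11 classes, so many of its points rest on few UMIs. Trem1, a receptor of neutrophils and monocytes, was at 343 and 358 CPM in neutrophil-like cells and 2.63 and 1.34 CPM in macrophage-like cells. For Soat1 they were Slc31a1 (0.96), Lamp2 (0.96) and Zfand5 (0.96). Lamp2, a lysosomal membrane protein, measured 387 and 351 CPM in macrophage-like and 59.5 and 79.9 CPM in NK-like cells.

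Most enzyme levels in the compared classes of knockout tumours were close to those of WT tumours. Of 110 pairs of an enzyme and a compared class, 86 had at least 50 UMIs over both libraries, and 77 of these differed by less than 1.5-fold. At least 1.5-fold higher in the knockout library were 5 pairs (5.81%), where 6.87% of all gene and class pairs with as many UMIs were. At least 1.5-fold lower were 4 pairs (4.65%), where 5.22% of all pairs were. The melanocyte-gene gate, which is not counted as immune, gave 8 of the 86 pairs and 2 of the 4 lower ones. Both shares of the enzymes lie near or under those of all genes. The median absolute log2 ratio of the 86 pairs was 0.19. Exact conditional 95% intervals of the ratio excluded 1 in 34 pairs, but they hold counting error alone and say nothing of the spread between tumours. No such count over all genes is given here, so 34 is not read as many or few.

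**Figure D3:**
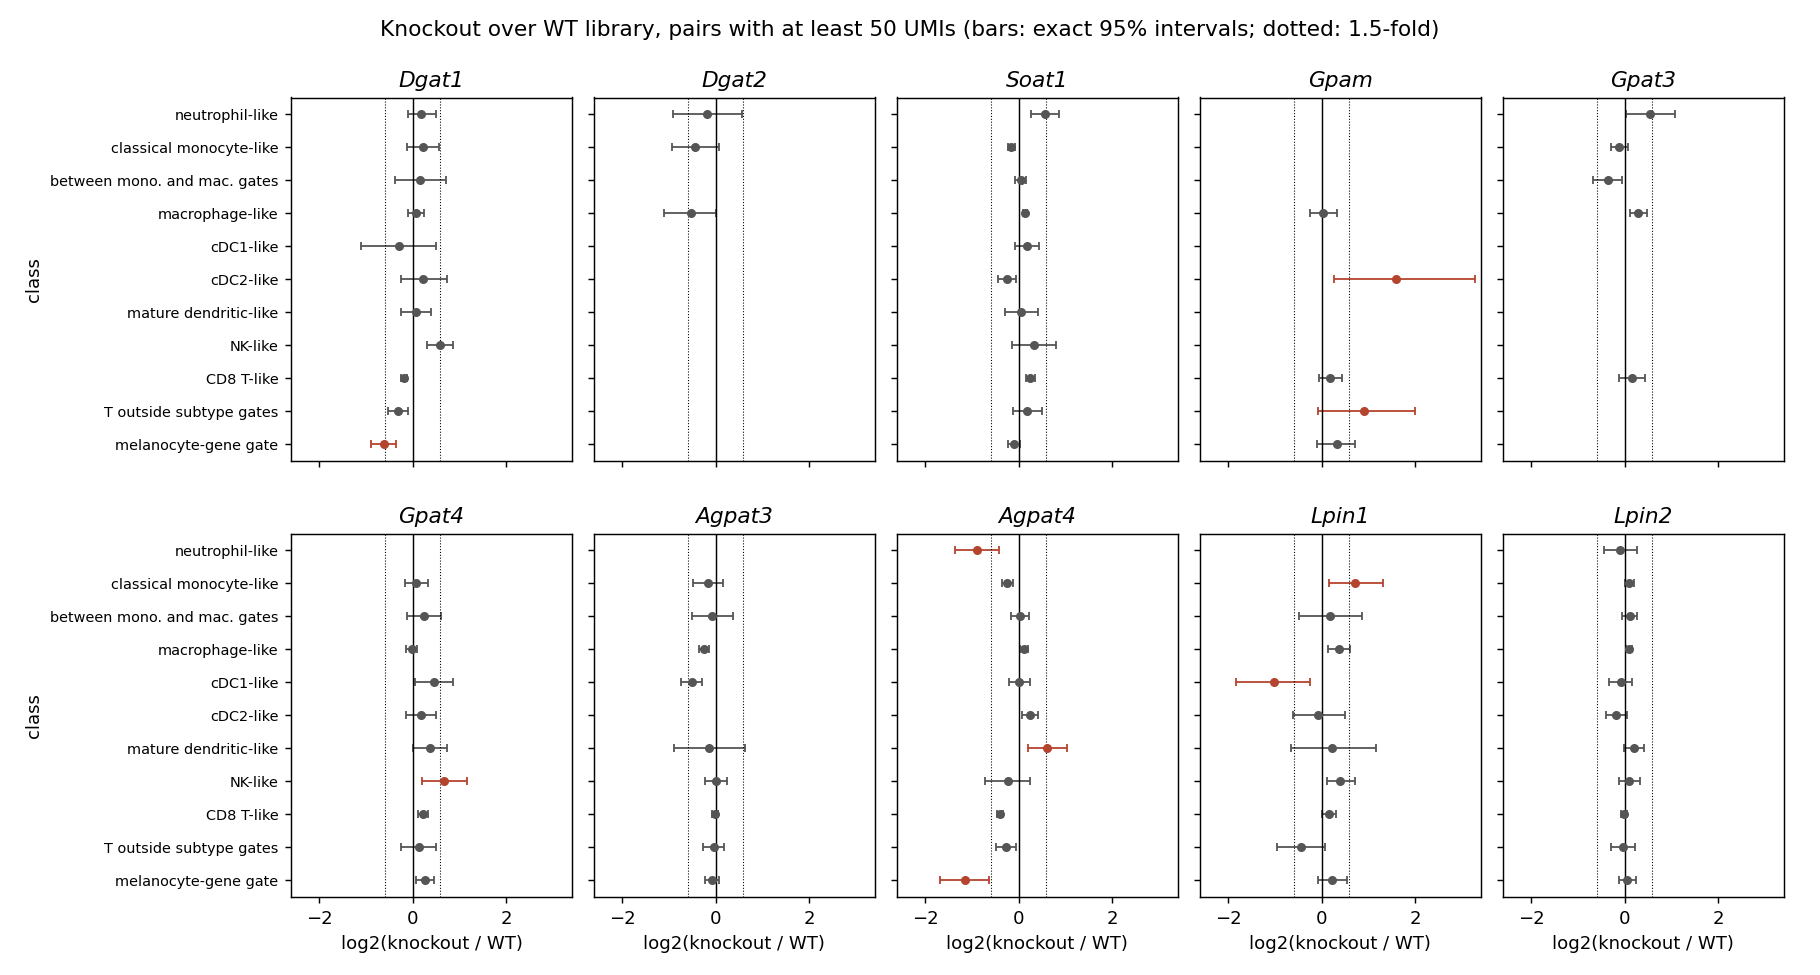
Log2 ratio of CPM, knockout over WT, for each enzyme in each compared class with at least 50 UMIs over both libraries; bars are exact conditional 95% intervals (counting error only) dotted lines mark 1.5-fold either way and red marks points past them. Of 86 points, 77 lie between the lines, 5 to the right and 4 to the left.

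By enzyme, Gpam was above 0 on the log2 scale in 5 of 5 classes with enough UMIs, Gpat4 in 9 of 10 and Lpin1 in 7 of 10. Agpat3 was below 0 in 8 of 9 and Dgat2 in 3 of 3. In the compared classes with too few UMIs, Gpam lay on both sides of 0, from -0.88 in cDC1-like to 0.71 in between-gate cells. Dgat2 did too where both libraries held UMIs, from -0.91 in between-gate cells to 0.71 in T cells outside the subtype gates. The 5 of 5 and 3 of 3 therefore hold only for the classes that passed the UMI filter, which sums the libraries. Dgat1 was above 0 in 7 of 11 classes and below in 4, and Lpin2 was above in 6 and below in 5, within -0.18 and 0.20. Classes of a library share its preparation, so these counts are not independent. The median log2 ratio of all genes was also above 0 in each of the 11 compared classes, from 0.0017 to 0.11. Signs above 0 are thus not particular to these enzymes. By class, the median log2 ratio of the enzymes was 0.33 in NK-like cells, where that of all genes was 0.10. In macrophage-like cells it was 0.08 beside 0.0017 for all genes, in CD8 T-like cells 0.15 beside 0.05, and in classical monocyte-like cells -0.12 beside 0.08.

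Dgat1 itself measured 13.8 and 13.2 CPM in macrophage-like cells, a ratio of 1.05 (0.929 to 1.19), while the ratio was 0.876 (0.837 to 0.916) for CD8 T-like cells. In NK-like cells the levels of 94.9 and 63.5 CPM gave a ratio of 1.49 (1.23 to 1.83), just inside 1.5-fold, and in neutrophil-like cells the ratio was 1.14 (0.928 to 1.40). The class in which Dgat1 passed 1.5-fold was the melanocyte-gene gate, with 18.7 CPM (15.7 to 22.03) from knockout and 28.8 CPM (26.9 to 30.8) from WT tumours, a ratio of 0.648 (0.539 to 0.775) where 15.4% of all genes passed 1.5-fold either way. Pooled UMIs weigh large cells most. With each cell weighing alike the log2 ratio turned from -0.63 to 0.12, and with the clusters of the gate weighted alike to 0.21. An edited gene can still be transcribed and counted, so this level checks no label.

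Soat1 in neutrophil-like cells was just inside 1.5-fold, at a ratio of 1.47 (1.20 to 1.81), and Gpat3 there was too, at 1.46 (1.03 to 2.12). In that class 19.5% of all genes passed 1.5-fold. In CD8 T-like cells Soat1 was at 42.6 and 35.8 CPM, giving a ratio of 1.19 (1.12 to 1.27), and in macrophage-like cells the ratio was 1.09 (1.06 to 1.12). Dgat2 had enough UMIs in only 3 classes, with ratios of 0.874 (0.527 to 1.48) in neutrophil-like, 0.738 (0.522 to 1.05) in classical monocyte-like and 0.690 (0.464 to 1.004) in macrophage-like cells.

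Among first-step enzymes, Gpam in cDC2-like cells was at 5.98 and 1.99 CPM, giving a ratio of 3.01 (1.20 to 9.72). It rested on 45 and 5 UMIs in 40 and 4 cells, which together only just met the minimum for a pair. Most of them came from the knockout library, where the level was higher. Free RNA was estimated at 2.49% and 16.5% of the levels. Of all genes, 13.1% passed 1.5-fold there. The log2 ratio of Gpam in cDC2-like cells, 1.59, ranged from 0.45 to 1.80 over the alternatives in processing. In the other T cells, those outside the CD8, CD4, Treg and gamma-delta subtype gates, Gpam was at 6.58 and 3.52 CPM, giving a ratio of 1.87 (0.951 to 4.02) whose interval includes 1, with 44 and 11 UMIs and 9.96% of all genes passing. The leading genes of this class include Foxp3 and Cd40lg, which mark Treg and CD4 T cells. They also include Klra6, Klra1 and Klra5, of a gene family with other members among the leading genes of NK-like cells. With cells thinned to 1 depth, the log2 ratio in the other T cells turned from 0.90 to -0.19. Gpat4 in NK-like cells was at 36.1 CPM (30.5 to 42.5) from knockout and 22.8 CPM (16.95 to 30.1) from WT tumours, a ratio of 1.58 (1.14 to 2.23), where 10.9% of all genes passed, and its log2 ratio of 0.66 ranged from 0.29 to 0.78. The knockout library held the higher level in each of these 3 pairs.

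Agpat4 passed 1.5-fold in opposite directions. In mature dendritic-like cells, which have taken up antigen and migrate, it was at 42.9 CPM (36.9 to 49.6) from knockout and 28.2 CPM (21.99 to 35.5) from WT tumours, a ratio of 1.52 (1.15 to 2.03), where 12.7% of all genes passed. Its log2 ratio of 0.61 ranged from 0.29 to 1.15 over the alternatives. In neutrophil-like cells it was at 68.2 CPM (54.6 to 84.3) from knockout and 126 CPM (99.1 to 159) from WT tumours, a ratio of 0.541 (0.392 to 0.748). There, 10 cells held 34.9% and 66.2% of its 86 and 74 UMIs, and with a wider gate margin the log2 ratio moved from -0.89 to -0.04. In the melanocyte-gene gate it was at 4.64 and 10.2 CPM, giving a ratio of 0.453 (0.310 to 0.644) that turned above 1 with each cell weighing alike (log2 1.21) and with clusters weighted alike (1.85). In CD8 T-like cells Agpat4 stayed inside 1.5-fold at 72.1 and 95.1 CPM, giving a ratio of 0.758 (0.726 to 0.790). Agpat3 in cDC1-like cells was just inside, at 0.698 (0.598 to 0.814).

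Lpin1 was at 6.81 CPM (5.65 to 8.13) from knockout and 4.14 CPM (2.89 to 5.76) from WT tumours in classical monocyte-like cells, a ratio of 1.64 (1.12 to 2.47), where 10.3% of all genes passed 1.5-fold. Its log2 ratio of 0.72 ranged from 0.33 to 0.88 over the alternatives. In cDC1-like cells it was at 6.96 CPM (4.25 to 10.7) from knockout and 14.1 CPM (10.6 to 18.5) from WT tumours, a ratio of 0.493 (0.279 to 0.839) from 20 and 53 UMIs, where 12.1% of all genes passed. In NK-like cells, its highest class, the ratio was 1.32 (1.08 to 1.63). Lpin2 did not pass in any of the 11 classes. Its ratios were 1.07 (1.03 to 1.11) in macrophage-like and 0.989 (0.947 to 1.03) in CD8 T-like cells.

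Within CD8 T-like cells some of the enzymes differed between states. States were set by UMIs of marker genes, with limits chosen after the levels by class had been seen. Cells with Tcf7 or Slamf6, genes of memory-like T cells, and few late granzymes numbered 517 and 312, and cells high in late granzymes 113 and 165. Dgat1 was at 58.4 and 58.9 CPM in the former and at 83.8 and 114 CPM in the latter. Agpat4 went from 55.2 and 73.4 CPM to 113 and 131 CPM, and Lpin2 from 63.5 and 67.7 CPM to 93.3 and 113 CPM. Agpat3 lay the other way, with 69.99 and 66.7 CPM and then 47.1 and 61.4 CPM. These orders held in both libraries, although the intervals for Agpat3 overlap in the WT library. Gpat4, at 28.9 and 24.8 CPM and then 31.01 and 21.9 CPM, had opposite orders in the libraries, with overlapping intervals. Gpam, at 5.64 and 4.78 CPM and then 6.86 and 7.05 CPM, had overlapping intervals in both libraries. Between libraries, Dgat1 in cells that were not cycling was at 69.2 CPM (65.2 to 73.4) from knockout and 95.1 CPM (90.3 to 99.95) from WT tumours, a log2 ratio of -0.46 (-0.57 to -0.35). In cycling cells its log2 ratio was -0.04. Agpat4 had a log2 ratio below 0 in all 5 overlapping groups of CD8 T-like cells (late granzymes high, Tcf7 or Slamf6, the others, cycling and not cycling), from -0.41 to -0.21.

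**Figure D4:**
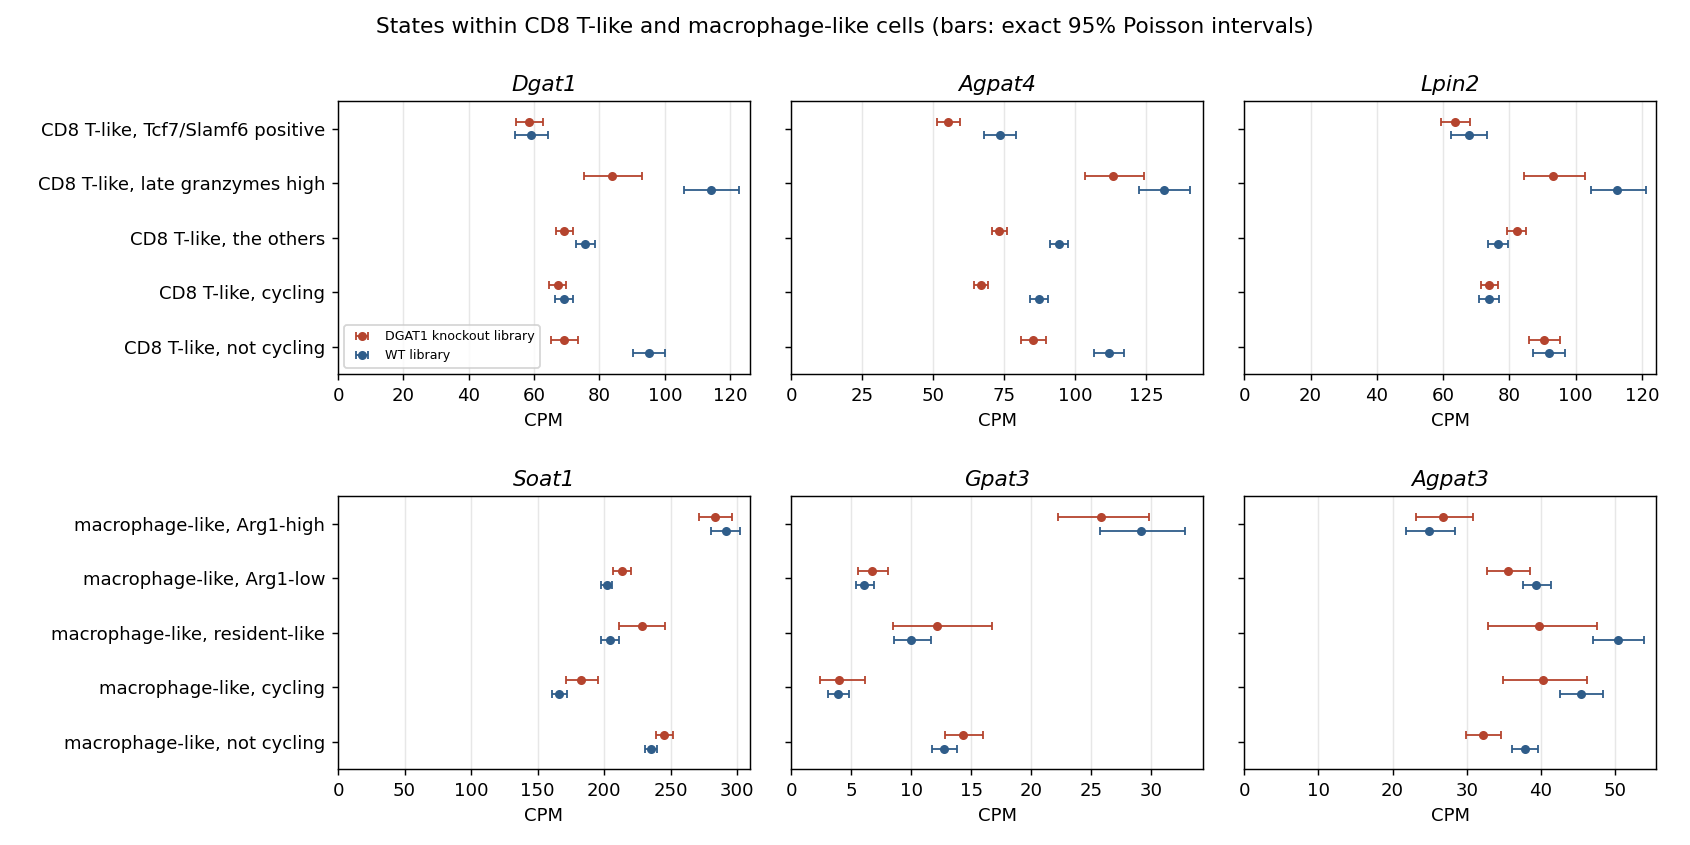
Level in CPM (linear axes) of Dgat1, Agpat4 and Lpin2 in states of CD8 T-like cells and of Soat1, Gpat3 and Agpat3 in states of macrophage-like cells, with the knockout and WT libraries as separate points and exact 95% Poisson intervals as bars (counting error only). Dgat1 and Agpat4 are higher in CD8 T-like cells with high late granzymes than in those with Tcf7 or Slamf6, and Gpat3 and Soat1 are highest in Arg1-high macrophage-like cells.

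Macrophage-like cells were divided into Arg1-high cells, Arg1 being the arginase of tumour macrophages (403 and 519 cells), Arg1-low cells (863 and 1846 cells) and cells with resident-like genes (171 and 632 cells). Gpat3 was at 25.8 and 29.1 CPM in the Arg1-high and 6.72 and 6.09 CPM in the Arg1-low cells. Soat1 was at 284 and 291 CPM, 213 and 202 CPM and 228 and 204 CPM in the Arg1-high, Arg1-low and resident-like cells. Agpat3 was lowest in the Arg1-high cells, with 26.8 and 24.9 CPM, 35.6 and 39.4 CPM and 39.7 and 50.4 CPM in the same order. Lpin1 in resident-like cells was at 21.2 CPM (16.3 to 27.1) from knockout and 9.78 CPM (8.33 to 11.4) from WT tumours, a log2 ratio of 1.12 (0.67 to 1.55) from 63 and 162 UMIs. Its log2 ratio was 0.47 (0.14 to 0.79) in Arg1-low and -0.16 (-0.76 to 0.42) in Arg1-high cells. In cycling cells, which overlap these groups, it was 0.82 (0.20 to 1.42). In macrophage-like cells as a whole Lpin1 was inside 1.5-fold, at a ratio of 1.30 (1.10 to 1.52). No share of all genes past 1.5-fold is given for states, whose limits were set after levels by class were seen. Gpat3, at a ratio of 1.23 in macrophage-like cells as a whole, had log2 ratios of -0.17 (-0.45 to 0.10) in Arg1-high, 0.14 (-0.19 to 0.46) in Arg1-low and 0.27 (-0.29 to 0.80) in resident-like cells.

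Other genes of lipid ester metabolism were counted by the same 1.5-fold rule, to be read beside the 6.87% higher and 5.22% lower of all pairs. Of 79 pairs of 14 further synthesis enzymes, 6 were higher (7.59%) and 3 lower (3.80%). Agpat5, an acyltransferase, was the highest by ratio, with 11.4 and 5.95 CPM, giving a ratio of 1.92 (1.06 to 3.70), in mature dendritic-like cells. Those levels came from 48 and 15 UMIs, with free RNA estimated at 11.7% and 53.7% of them. Gpd1, which makes glycerol 3-phosphate, was the lowest, with 0.408 and 1.11 CPM, giving a ratio of 0.367 (0.176 to 0.694), in macrophage-like cells. It had 11 and 77 UMIs there, and free RNA was estimated at 29.1% of the WT level. Of 52 pairs of 7 acyl-CoA synthetases, which activate fatty acids, 5 were higher (9.62%) and 1 was lower (1.92%). Acsl3 in the other T cells was at 6.73 and 2.88 CPM, giving a ratio of 2.34 (1.13 to 5.44), and Slc27a1 in CD8 T-like cells at 4.51 and 6.84 CPM, giving a ratio of 0.660 (0.558 to 0.779). Of 148 pairs of 17 enzymes that draw on phosphatidate or diacylglycerol, 9 were higher (6.08%) and 13 lower (8.78%). Pcyt1a, the regulatory enzyme of phosphatidylcholine synthesis, was at 106 and 54.6 CPM, giving a ratio of 1.93 (1.31 to 2.94) in neutrophil-like cells. Dgkg, a diacylglycerol kinase, was at 3.23 and 10.8 CPM, giving a ratio of 0.299 (0.252 to 0.355) in CD8 T-like cells.

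The genes that store and release the esters gave more lower than higher pairs. The lists were chosen with earlier results of these data known, and 1 gene can count in several classes. Their shares are therefore a description and no independent support. Of 44 pairs of 6 genes of lipid droplet formation, 0 were higher and 12 lower (27.3%). Hilpda, a hypoxia-induced inhibitor of triglyceride breakdown, was lower in 6 of 11 classes, Plin2, a droplet coat protein, in 4 of 11 and Plin3 in 2 of 9. Hilpda in NK-like cells was at 15.2 and 65.8 CPM, giving a ratio of 0.231 (0.168 to 0.314). Of 56 pairs of 6 ester hydrolases, 2 were higher (3.57%) and 7 lower (12.5%). Nceh1, a cholesterol ester hydrolase, was at 197 and 118 CPM, giving a ratio of 1.67 (1.28 to 2.22) in neutrophil-like cells, and Mgll, the monoglyceride lipase, at 77.2 and 326 CPM, giving a ratio of 0.237 (0.218 to 0.258) in the melanocyte-gene gate. Of 50 pairs of 8 transcription factors known for the pathway, 2 were higher (4.0%) and 14 lower (28.0%). Pparg, the main fat-cell transcription factor, made up 8 of these, with all 8 classes that had enough UMIs, and Nr1h3, the sterol sensor LXR alpha, 5 of 5. Pparg in cDC1-like cells was at 2.09 and 19.4 CPM, giving a ratio of 0.107 (0.0382 to 0.245), from 6 and 73 UMIs in 2 and 25 cells. Srebf1 and Srebf2, which drive fatty acid and sterol synthesis, passed in 0 of 10 and 0 of 11 classes. Xbp1, a factor of the unfolded protein response, was at 292 and 154 CPM, giving a ratio of 1.90 (1.51 to 2.42) in neutrophil-like cells.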

How the data were processed

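The authors deposited raw UMI counts, in whole numbers, for every gene and barcode of both libraries. Cell Ranger 7.2.0 wrote them, per the file headers, and the build mm10 is named in the submitters' processing notes. The sources used here give neither its annotation and filters nor its use of strand. GENCODE M21 gave the gene positions.

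Barcodes above a UMI threshold (9264 and 16615), or with at least 500 UMIs and a profile unlike free RNA at a false discovery rate of 0.01 over 10000 simulations, were taken as cells, 12860 and 10933. The statistic of that step was changed from a likelihood to a deviance after the ratios of the 10 enzymes had been seen, because cells of low depth were missed on simulated data. The depth of the simulated cells was raised to 2000 UMIs at the same time, so the step remains weak for barcodes of fewer UMIs. With the likelihood, 12366 and 10331 cells were called, and 6 pairs were higher and 4 lower. Cells with fewer than 250 genes or over 10% mitochondrial UMIs were left out, then doublets marked by Scrublet in scanpy 1.11.5 (342, 2.99%, and 132, 1.39%).

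Each cell took the class with the leading marker score if it was at least 0.2 and led by at least 0.1. Clusters (leidenalg 0.10.2, resolution 1) entered the alternatives. Gate limits were set after marker levels of clusters were seen and before enzyme levels by class. State limits and the thinning depth were set after them. Ungated cells, 2214 and 1394, and 28 and 40 in rare classes enter no class.

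For each class of a library the UMIs of a gene were summed and set over the class total. Intervals are exact Poisson, binomial and conditional at 95% (scipy 1.17.1) and cover counting error only. The enzymes and lists were chosen with earlier results of these data known. All 10 enzymes are named, with the 3 most alike genes, with at least 500 UMIs, for each last-step enzyme, and in each list the gene and class with the largest and smallest ratio past 1.5-fold. The ratio code was checked on simulated data. Alternatives changed the cells, gates, free RNA, depth, weights and UMI filter.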

Additional observations from a re-analysis of the deposited data

Results flagged for a closer look

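Agpat4 passed 1.5-fold in opposite directions between classes. Its log2 ratio of knockout over WT was -0.89 in neutrophil-like cells and -1.14 in the melanocyte-gene gate, and 0.61 in mature dendritic-like cells. Lpin1 did so too, with 0.72 in classical monocyte-like cells and -1.02 in cDC1-like cells. Each class has 1 library per group, so the difference between classes was not tested. Over the alternatives Agpat4 lay between -1.03 and -0.04 in neutrophil-like cells, between 0.29 and 1.15 in mature dendritic-like cells and between -1.34 and 1.85 in the melanocyte-gene gate. Lpin1 lay between 0.33 and 0.88 in classical monocyte-like cells and between -2.87 and -0.73 in cDC1-like cells.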

How the results depend on the processing

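Over 13 alternatives, 5 higher and 4 lower pairs became 3 higher with clusters in place of gates, 3 higher with cells thinned to 2000 UMIs, 8 higher with each cell weighing alike, and 10 higher and 10 lower with no filter on UMIs. With at least 20 UMIs per pair, 8 were lower, and with each cell weighing alike, 6 were lower. The other counts lay within 1.5 times. Of the 9 pairs, 4 still passed with barcodes above the UMI threshold alone, 2 with thinned cells, where 53 pairs had enough UMIs, and 9 with at least 1000 UMIs per cell and with free RNA subtracted. The log2 ratio turned in 3 pairs: Agpat4 in the melanocyte-gene gate became 1.21 with each cell weighing alike and 1.85 with clusters weighted alike, Dgat1 there 0.12 and 0.21, and Gpam in other T cells -0.19 when thinned. The cause was not tested. Over all enzyme and class pairs, the log2 ratio left its interval of counting error in 34 pairs with thinned cells and 18 with clusters weighted alike. It did so in 13 pairs with each cell weighing alike and in 12 with barcodes above the UMI threshold alone. Each other alternative moved 7 pairs or fewer. The intervals thus do not cover the choice of processing. The likelihood was the first statistic for calling cells, and the deviance replaced it after the ratios had been seen. Kept as an alternative, the likelihood gave 6 higher and 4 lower of 85 pairs, beside 6.91% and 5.08% of all pairs. The change was Soat1 in neutrophil-like cells, from 0.56 to 0.59. No paired analysis was possible because each group has 1 library. Depth limits Dgat2, which had enough UMIs in 3 of 11 classes, Gpam and Gpat3, with 5 of 11 each, and all enzymes in classes of few cells.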

Other observations

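Some classes held too few cells to be compared and are given as values. Non-classical monocyte-like cells, 101 and 49, had Lpin2 at 125 and 153 CPM, Gpat3 at 1.82 and 2.997 CPM and Gpat4 at 21.8 and 23.97 CPM. CD4 T-like cells, 178 and 57, had Lpin2 at 50.2 CPM (41.8 to 59.7) from knockout and 133 CPM (102 to 169.6) from WT tumours, from 127 and 63 UMIs. Treg-like cells, 97 and 70, had 2 and 17 UMIs of Gpat3 and Lpin1 at 6.51 and 10.97 CPM. Plasmacytoid dendritic-like cells, 125 and 41, had Lpin2 at 158 CPM (138 to 180.1) from knockout and 114 CPM (88.5 to 146) from WT tumours, Gpat4 at 30.6 and 12.1 CPM and Dgat1 at 18.5 and 24.3 CPM. B-like cells, 64 and 151, had Gpat3 at 12.2 and 22.9 CPM and Soat1 at 94.7 and 73.6 CPM, with free RNA estimated at 15.1% and 8.35% of their UMIs.

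The melanocyte-gene gate had Soat1 at 92.7 and 99.4 CPM, Gpat4 at 37.5 and 31.4 CPM and Agpat3 at 59.2 and 62.3 CPM.

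The level of Dgat1 over all kept cells, 44.0 CPM (43.0 to 45.0) and 37.3 CPM (36.5 to 38.2), mixes classes in unlike shares. Neutrophil-like cells were 255 and 118 of the kept cells, and macrophage-like cells 1437 and 2997.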
